A study of Oryza sativa Indica Group with 27 samples.

Results

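The long intergenic RNAs (lincRNAs) examined here were all of the lincRNA loci listed for Nipponbare rice, 107 in number, beside 37869 annotated genes of the Rice Annotation Project. Values were given for 104 of the 107 loci, and these 104 make up the results. The plants were wild-type Nipponbare (WT), a rice cultivar, grown in Yoshida nutrient solution to the three-leaf stage, and whole plants were sampled. Dehydration was imposed by taking the solution away for 1 or 6 h, and untreated plants served as 0 h. Times are given as hours after treatment (HAT). The groups were WT at 0, 1, and 6 HAT, with 1 column of values per time point and no replicate. In whole plants, fewer cells of a type and less RNA per cell cannot be told apart. Each of the 3 times has 2 long-RNA libraries in the labels, titled RNA-Seq and riboZ RNA-Seq (read here as depleted of ribosomal RNA). The table does not say which of them its column came from. The transgenic AP2 plants and the cultivar Vandana of the same series have no column in the lincRNA table.

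lincRNAs are transcripts that lie between protein-coding genes and hold no long reading frame. In plants they are known for low levels, for expression that often varies with tissue and condition, and for roles in chromatin silencing, in microRNA decoying, and in the control of neighbouring genes, although most have no assigned role. None of the loci below has a gene name or a known function in the sources used here, so they are called by their locus IDs. Removal of water from the roots is a severe and rapid stress in rice. Dip1 (Os02g0669100), a dehydration marker of rice, had 92.6, 329, and 2583 FPKM at 0, 1, and 6 HAT in the gene table. FPKM relates the fragments counted on a transcript to its length and to the depth of the library. The marker was highest in the column of the longest treatment.

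The listed loci all differed strongly between 0 and 6 HAT, which has to be known before any count is read. Each of the 104 loci had at least 3.02 FPKM at 0 or 6 HAT. Each of the 35 loci above 0.01 FPKM at both times differed by at least 5.06-fold between them. The locus nearest to that fold was XLOC_000310, and the next was XLOC_001062 with 5.10-fold. The locus nearest to the level was XLOC_000588, and the next was XLOC_000434 with 3.05 FPKM. No source used here says how the list was made. Because every listed locus lies past both edges, the list was treated as chosen on the difference between 0 and 6 HAT, and that difference is given below as a description of the loci and not as a finding. The values at 1 HAT are the only ones at which the loci did not all share such an edge, but comparisons with 1 HAT still use the 0 or the 6 HAT column that set the edges.

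More lincRNAs were seen in the treated plants than in the untreated ones. At 0, 1, and 6 HAT, 47, 67, and 73 of the 104 loci had at least 1 FPKM. Those listed at exactly 0 numbered 45, 18, and 20. These counts follow the make-up of the list, in which more loci are higher than lower at 6 HAT. The median level over the loci was 0.543, 1.98, and 3.85 FPKM, and the highest single level was 109, 90.6, and 41.2 FPKM. The median was thus lowest before treatment, while the highest single level was found then. The order of the medians depended on the loci listed at 0. Over the 34 loci above 0.01 FPKM in every library, the medians were 6.68, 4.63, and 3.96 FPKM, the opposite order. Detection at all 3 times (above 0.01 FPKM) was found for 34 loci, at 1 and 6 HAT only for 33, at 0 and 1 HAT only for 17, at 6 HAT only for 13, at 0 HAT only for 6, at 0 and 6 HAT only for 1, and at 1 HAT only for 0.

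By direction, 63 loci (60.6%) were higher and 41 (39.4%) lower at 6 HAT than at 0 HAT. The 63 higher loci had median levels of 0, 1.11, and 5.95 FPKM at 0, 1, and 6 HAT, and 45 of them were listed at 0 at 0 HAT. The 41 lower loci had median levels of 7.26 and 4.31 FPKM at 0 and 1 HAT, and 20 of them were listed at 0 at 6 HAT. The lower loci were thus mostly present at 1 HAT, with 34 of 41 at or above 1 FPKM, while 33 of the 63 higher loci had reached 1 FPKM by then. The same rule of at least 2-fold and at least 1 FPKM in one of both libraries called 14.6% of genes higher and 37.3% lower at 6 HAT than at 0 HAT. Nothing can be read from these shares for the lincRNAs, since all listed loci are past the edges of this contrast.

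**Figure D1:**
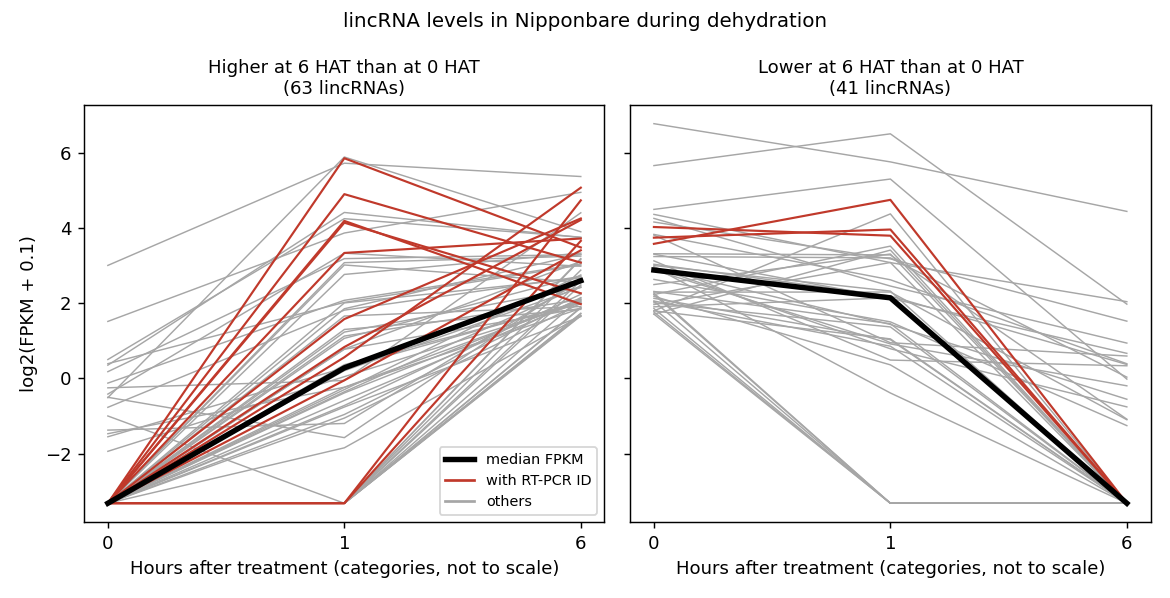
Level of each lincRNA at 0, 1, and 6 HAT as log2(FPKM + 0.1), with loci higher at 6 HAT on the left (63) and loci lower at 6 HAT on the right (41); grey and red thin lines are single loci, red ones carry an RT-PCR ID, and the thick black line is the median FPKM. The median of the higher loci lies at 0, 1.11, and 5.95 FPKM, and many lines start at a listed 0.

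The first hour divided the loci. From 0 to 1 HAT, 38 of the 74 loci that reached 1 FPKM at either time were at least 2-fold higher and 21 were at least 2-fold lower at 1 HAT. Among genes, 10.5% were higher and 12.3% lower by the same rule. The median log2 change over the 74 loci was 1.15, against -0.20 over 23788 genes. The commonest ratio of 0 to 1 HAT was 0.21 (log2) among genes, against -0.19 for the value of 1 fragment of lincRNAs. Whether the 0.21 gives the value of 1 fragment or the median shift in gene levels cannot be told apart. These medians and the called shares thus cannot be taken as on a common scale. The same holds for the genes used below. The split moved with the scaling, to 40 higher and 11 lower when the columns were scaled by the median ratio of 16 lincRNAs, and to 31 higher and 27 lower when they were scaled to an equal sum over the lincRNAs. Among loci with more than 10 fragments at 0 or 1 HAT, a limit chosen after seeing the data, 13 were higher and 8 lower. Since loci with a gap between 0 and 6 HAT would be called more often than all genes, genes with the same gap (at least 3 FPKM at 0 or 6 HAT and at least 5-fold between them) are the nearer comparison. There were 3560 of these, 1219 higher and 2341 lower at 6 HAT. This comparison was added after the values were seen.

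Of the 63 lincRNAs higher at 6 HAT, 33 (52.4%) were already higher at 1 HAT, 30 were not called, and 0 were lower. Among the genes with the same gap, 54.3% of the higher ones were already higher at 1 HAT. Of the 41 lincRNAs lower at 6 HAT, 21 (51.2%) were lower at 1 HAT, 15 were not called, and 5 (12.2%) were higher. Among genes with the same gap, 37.6% of the lower ones were lower at 1 HAT and 0.513% were higher. The shares of loci called in the direction of the later difference were close to that of genes for the higher loci and above that of genes for the lower loci. For 4 of the 5 loci that were higher at 1 HAT and lower at 6 HAT, the counting interval of the ratio of 1 to 0 HAT included 1, as given below. The difference in shares was not tested.

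**Figure D2:**
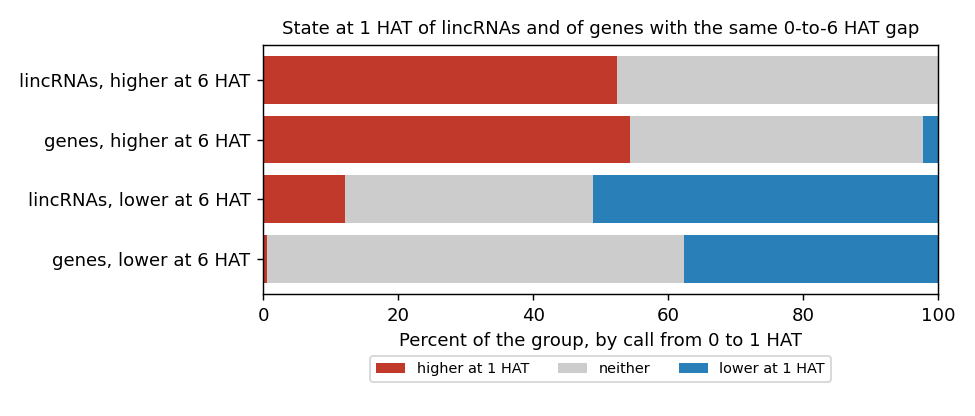
Share of each group that was at least 2-fold higher (red), at least 2-fold lower (blue), or neither (grey) at 1 HAT against 0 HAT, as percent of the group (x axis), for lincRNAs and for genes with the same gap between 0 and 6 HAT. Of the lincRNAs higher at 6 HAT 52.4% were already higher at 1 HAT, against 54.3% of such genes, and of those lower at 6 HAT 12.2% were higher at 1 HAT, against 0.513% of such genes.

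In the later interval, from 1 to 6 HAT, 42 of 97 loci were at least 2-fold higher and 37 at least 2-fold lower, where 12.3% of genes were higher and 30.2% lower. The median log2 change was 0.54 over these loci, against -0.41 over 23209 genes. Scaling by the median ratio of lincRNAs gave 57 higher and 21 lower. Over both intervals, 30 loci were higher only from 1 to 6 HAT, 16 only from 0 to 1 HAT, and 12 in both. A further 15 loci were lower only from 1 to 6 HAT, 9 only from 0 to 1 HAT, and 12 in both. The remaining 10 were higher from 0 to 1 HAT and lower from 1 to 6 HAT, and 0 showed the opposite course. A course that was higher only in the later interval was thus the most frequent one by this rule, but with no filter on low values 15 loci had it and 25 were higher in both intervals. Loci higher in both numbered 22 when scaled by the median ratio of lincRNAs, 5 with a 4-fold rule, and 1 with at least 5 FPKM. Loci lower in both numbered 0 with that scaling and with the 4-fold rule, 4 with at least 5 FPKM, and 6 with a pseudocount of 1. By level, 53 of the 63 higher loci peaked at 6 HAT while 10 peaked at 1 HAT. Among the 41 lower loci, 30 were highest at 0 HAT and 11 at 1 HAT.

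How far these levels can be trusted depends on the fragments behind them. For most loci the FPKM values were whole multiples of the value of 1 fragment once the length of the locus and of the sequenced fragment were allowed for. At 0, 1, and 6 HAT, 43 of 47, 68 of 75, and 66 of 71 values under 40 fragments came out within 0.1 of a whole number. With every such value whole, 87 of the 104 loci gave fragment counts, and the implied depth was about 7030000, 6150000, and 6280000 fragments. A single fragment on a locus of 1000 effective bases was then worth 0.142, 0.163, and 0.159 FPKM. The length and step behind these counts were fitted to the same values, so the counts are estimates, and they are least certain for the shortest loci. In the library where it was highest, a locus had a median of 14 fragments (range 1 to 103), and 30 of the 87 loci had at most 10. A level of a few FPKM could rest on a single fragment: 6, 11, and 8 values at 0, 1, and 6 HAT were of 1 fragment. Lengths of the 104 loci ran between 201 and 8396 bases with a median of 502, and 9 of the 10 loci with the highest levels were shorter than 450 bases. The loci higher at 6 HAT had a median length of 625 bases, against 388 bases in the loci lower at 6 HAT.

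**Figure D3:**
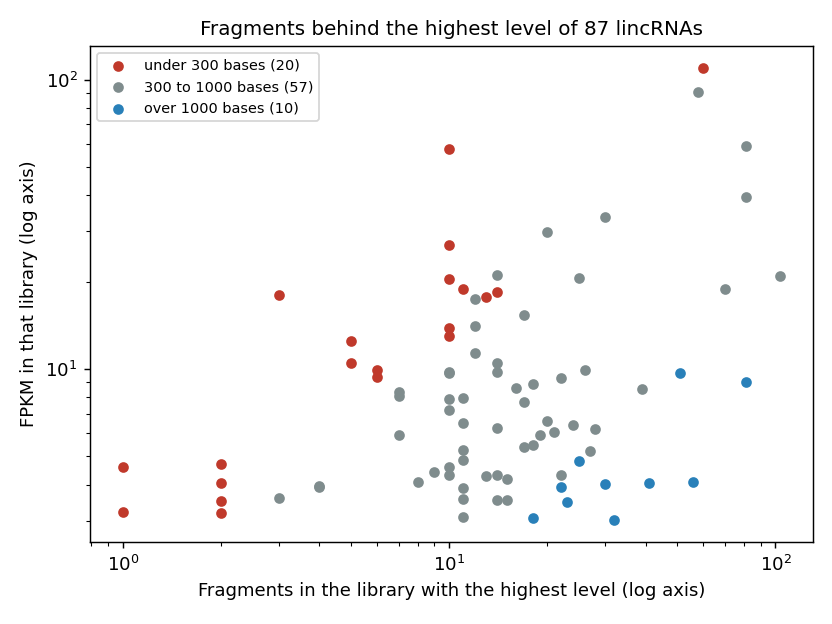
Highest level of each of 87 lincRNAs in FPKM (y axis, log) against the estimated fragments behind it (x axis, log), coloured by the length of the locus. Loci under 300 bases (red) reach several FPKM with 1 to 3 fragments, while loci over 1000 bases (blue) have 18 or more fragments.

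Intervals of the ratio between times, which cover counting error only, set fewer loci apart. Among the 87 loci with fragment counts, the 95% interval of the ratio of 1 to 0 HAT lay above 1 for 22 (25.3%) and below 1 for 5 (5.75%), and that of 6 to 1 HAT lay above 1 for 28 (32.2%) and below 1 for 21 (24.1%). From 0 to 1 HAT, the interval lay above 1 for 19 of the 33 called higher loci with fragment counts, and below 1 for 5 of the 16 called lower loci. From 1 to 6 HAT the corresponding numbers were 28 of 37 and 21 of 32. Of the 41 loci with fragment counts that were listed at 0 at 0 HAT, 33 were at least 2-fold higher at 6 HAT and 17 at least 5-fold higher when the 0 was set to the 3 fragments that a 0 allows. The 6 HAT counts were taken as exact there, so these numbers do not allow for their counting error. These numbers also only describe the listed loci, because the list was treated as chosen on the difference between 0 and 6 HAT. Fragment counts from PCR-amplified libraries are not independent molecules, and 1 library per time leaves the spread between plants unknown.

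Several of the highest levels at 6 HAT belonged to loci at or near 0 before treatment. XLOC_000364 (chromosome 4, 517678 to 520999, IRGSP-1.0, 3321 bases), which carries the RT-PCR ID OslncR013, had 0, 0, and 26.5 FPKM at 0, 1, and 6 HAT, too many fragments for the whole-number check. XLOC_000044 (chromosome 1, 6258403 to 6258719) had 0, 1.37, and 33.5 FPKM, on 0, 1, and 30 fragments. Its 6 HAT level was 10.4-fold that at 0 HAT with the 0 set to 3 fragments, and the interval had a lower limit of 7.94. XLOC_000840 (chromosome 9, 12748787 to 12749549) had 0, 2.88, and 18.9 FPKM, on 0, 10, and 70 fragments. With the 0 set to 3 fragments, its 6 HAT level was 25.7-fold that at 0 HAT, and the interval had a lower limit of 20.3. All 3 were listed at 0 in untreated plants and were highest at 6 HAT.

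XLOC_000903 (chromosome 10, 12121934 to 12122887), named after its values were seen, had the most fragments at 6 HAT among the loci that were higher only in the later interval and had fragment counts. Its levels were 0.740, 0.861, and 21.0 FPKM on 4, 4, and 103 fragments. The 6 HAT level was 24.4-fold the 1 HAT level, with a 95% counting interval of 9.26 to 91.4. The levels at 0 and 1 HAT did not differ beyond counting error (ratio 1.16, interval 0.217 to 6.25). XLOC_000577 and XLOC_000129, with 18.4 and 10.5 FPKM at 6 HAT, had 1.68 and 0.864 FPKM at 1 HAT, each a single fragment, and were listed at 0 at 0 HAT.

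XLOC_001108 and XLOC_001109, also named after their values were seen, lie 112 bases apart on chromosome 12 (23028041 to 23029648 and 23029760 to 23030649). XLOC_001108 had 0.40, 0, and 9.0 FPKM on 4, 0, and 81 fragments, and XLOC_001109 had 0.605, 0.235, and 6.23 FPKM on 3, 1, and 28 fragments. Both were at their highest at 6 HAT, and their values were lowest at 1 HAT. The counting intervals of the ratio of 1 to 0 HAT included 1 for both (0 to 1.75 and 0.0074 to 4.84). Whether they belong to 1 transcript was not tested. Of 6 pairs of loci with values that lay within 100 kb of each other on the list, 6 had the same direction between 0 and 6 HAT. These pairs include XLOC_001108 and XLOC_001109. Of all loci, 60.6% were higher and 39.4% lower at 6 HAT, so many pairs share a direction wherever they lie. The list was also treated as chosen on this contrast, and whether neighbours share their direction more often was not tested. XLOC_000578, 50.9 kb from XLOC_000577, had 0, 0.713, and 6.63 FPKM. XLOC_000361, 82.9 kb from XLOC_000360, had 8.62, 1.30, and 1.16 FPKM. XLOC_000360 was highest at 1 HAT, so that pair shared its direction but not its course.

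Other loci were high at 1 HAT and, in part, lower again at 6 HAT. XLOC_000890 (chromosome 10, 2831050 to 2831471) had 0.600, 59.0, and 14.8 FPKM at 0, 1, and 6 HAT, on 1, 81, and 23 fragments. Its level at 1 HAT was 98.3-fold that at 0 HAT, with a counting interval of 17.2 to 3932 because of the single fragment at 0 HAT. At 6 HAT it was 0.251 of the 1 HAT level (interval 0.151 to 0.403). XLOC_000963 (chromosome 11, 3926165 to 3926472) had 0, 29.7, and 8.34 FPKM on 0, 20, and 7 fragments, and XLOC_000305 (chromosome 3, 4249729 to 4250038) had 0, 17.5, and 4.70 FPKM on 0, 12, and 4 fragments. With the 0 set to 3 fragments, their 1 HAT levels were 8.58-fold and 5.14-fold those at 0 HAT. The lower limits of the counting intervals were 6.34 and 3.56. All 3 loci had their highest level at 1 HAT, with 6 HAT levels below it and above the level at 0 HAT. Their log2 changes from 1 to 6 HAT were -1.99, -1.82, and -1.88 as deposited. Scaled to an equal sum they were -1.58, -1.41, and -1.47. Scaled by the median ratio of lincRNAs they were -0.525, -0.36, and -0.43, so no locus of the 3 was 2-fold lower under that scaling.

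A pair of shorter loci had the same course on fewer fragments. XLOC_000338 (chromosome 3, 18087324 to 18087531, 207 bases) had 0, 57.7, and 11.1 FPKM, on about 0, 10, and 3 fragments. Its 1 HAT level was 4.86-fold that at 0 HAT with the 0 set to 3 fragments. The counting interval of the ratio had a lower limit of 3.26. XLOC_000397 (chromosome 4, 4649935 to 4650140, 205 bases) had 0, 18.1, and 3.83 FPKM on about 0, 3, and 1 fragments, too few for a ratio. Its level of 3.83 FPKM was the same to all digits as that of XLOC_000021 at 6 HAT, a locus of 301 bases. The log2 changes of XLOC_000338 and XLOC_000397 from 1 to 6 HAT were -2.37 and -2.21 as deposited. Scaled by the median ratio of lincRNAs they were -0.91 and -0.77, less than 2-fold lower.

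The other 5 loci with this course were lower at 6 HAT than at 0 HAT, and all but XLOC_000360 were named after their values were seen. XLOC_000847 (chromosome 9, 15279286 to 15279681) had 3.37, 20.6, and 0 FPKM on 5, 25, and 0 fragments. It was 6.12-fold higher at 1 HAT than at 0 HAT, with an interval of 2.30 to 20.5. With the 0 set to 3 fragments, it was 9.55-fold lower at 6 HAT than at 1 HAT. The interval of the ratio of 6 to 1 HAT had an upper limit of 0.139. For XLOC_000360, with 11.8, 26.7, and 0 FPKM on 6, 10, and 0 fragments, the ratio of 1 to 0 HAT was 2.26 (interval 0.746 to 7.59). The intervals of XLOC_000275, XLOC_000312, and XLOC_000340 also included 1, with ratios of 2.47, 2.20, and 3.33. Counting error alone therefore separated 1 HAT from 0 HAT for XLOC_000847 but not for the other 4.

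**Figure D4:**
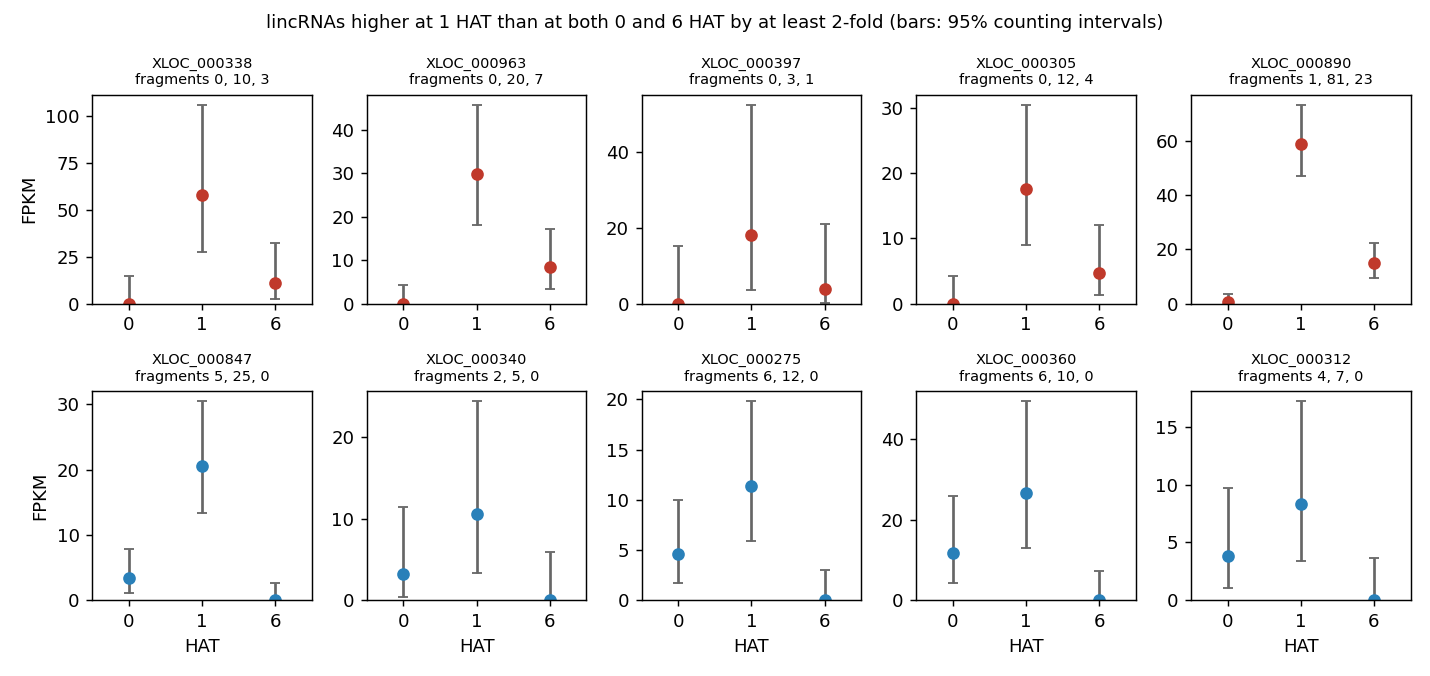
Level in FPKM (y axis, own scale per panel) at 0, 1, and 6 HAT of the 10 lincRNAs that were at least 2-fold higher at 1 HAT than at both other times, with the fragments above each panel and bars of 95% counting intervals; red loci were higher and blue ones lower at 6 HAT than at 0 HAT. Levels are as deposited. The interval at 1 HAT lies clear of those at 0 and 6 HAT for XLOC_000890, XLOC_000847, and XLOC_000963. These have 81, 25, and 20 fragments at 1 HAT, while XLOC_000397 rests on 3 fragments there.

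The highest levels of each library belonged to few loci. XLOC_000310 (chromosome 3, 6375276 to 6375536) had the highest level of all at 0 HAT, with 109, 53.9, and 21.6 FPKM at 0, 1, and 6 HAT on 60, 22, and 12 fragments. Its 1 HAT level was 0.494 of the 0 HAT level (interval 0.289 to 0.818), and its 6 HAT level 0.40 of the 1 HAT level (interval 0.182 to 0.850). Scaled by the median ratio of lincRNAs, its log2 changes to 6 HAT were 0.0028 from 0 HAT and 0.15 from 1 HAT. Scaled to an equal sum they were -2.59 and -0.91, and scaled by genes -1.83 and -1.0. The loci behind the lincRNA scaling, XLOC_000310 among them, come from the list treated as chosen on the 0 to 6 HAT difference. That scaling therefore cannot decide the direction of this locus. XLOC_001042 (chromosome 12, 8526974 to 8527247) had 7.92, 52.7, and 41.2 FPKM, the highest level at 6 HAT, without whole fragments. XLOC_000944 (chromosome 11, 3857132 to 3857514) had 2.76, 14.5, and 30.7 FPKM, also without whole fragments. As deposited, XLOC_000310 was lower at each later time, XLOC_001042 was high from 1 HAT on, and XLOC_000944 was higher at each later time. The order of XLOC_000310 did not hold under the lincRNA scaling, where its log2 change from 0 to 1 HAT was -0.15.

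Several loci that were lower at 6 HAT were, as deposited, less than 2-fold from their 0 HAT level at 1 HAT. XLOC_000021 (chromosome 1, 37526417 to 37526718) had 50.4, 90.6, and 3.83 FPKM on 42, 58, and 3 fragments, and XLOC_000253 (chromosome 2, 28704131 to 28704664) had 22.4, 39.3, and 0.886 FPKM on 55, 81, and 2 fragments. Both were higher at 1 HAT than at 0 HAT by less than 2-fold, with ratios of 1.80 (interval 1.18 to 2.72) and 1.75 (interval 1.23 to 2.52). The size of this difference depended on the scaling. The log2 changes from 0 to 1 HAT were 0.84 and 0.81 as deposited, and 0.18 and 0.14 when scaled to an equal sum. Scaled by the median ratio of lincRNAs they were 1.71 and 1.67, which is more than 2-fold. At 6 HAT, on 3 and 2 fragments, their levels were 0.0423 (interval 0.00828 to 0.127) and 0.0226 (interval 0.00269 to 0.0842) of those at 1 HAT. As log2 changes these were -4.53 and -5.32, against -3.08 and -3.94 when scaled by the median ratio of lincRNAs. XLOC_000664 (chromosome 7, 26900437 to 26902067) had 16.2, 13.8, and 0 FPKM, and XLOC_000772 (chromosome 8, 10141430 to 10141807) had 13.3, 15.4, and 0 FPKM, the second on 18, 17, and 0 fragments. XLOC_000772 was 6.56-fold lower at 6 HAT than at 1 HAT with the 0 set to 3 fragments. The interval of its ratio of 6 to 1 HAT had an upper limit of 0.209. The 0 of XLOC_000664 has no fragment count beside it. XLOC_000579 had 7.90, 4.90, and 0 FPKM on 10, 5, and 0 fragments, with a ratio of 1 to 0 HAT of 0.619 (interval 0.166 to 1.99).

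Other loci were lower by 1 HAT already. XLOC_001062 had 20.4, 8.34, and 4.01 FPKM on 10, 3, and 2 fragments, and its ratio of 1 to 0 HAT was 0.408 (interval 0.0724 to 1.59). Its log2 change from 1 to 6 HAT was 0.41 when scaled by the median ratio of lincRNAs, against -1.04 as deposited. Scaled to an equal sum and by genes it was -0.64 and -0.73. XLOC_000872 (chromosome 10, 11272780 to 11273933) had 19.0, 5.38, and 1.82 FPKM, and XLOC_000374 (chromosome 4, 32752502 to 32754618) had 7.69, 0.663, and 0 FPKM. XLOC_000732 (chromosome 8, 18264027 to 18266036) had 3.30 FPKM at 0 HAT and under 0.01 FPKM at both later times. The last 3 loci are over 1000 bases long, and their levels were lower at 1 HAT than at 0 HAT in each case. XLOC_000872 and XLOC_000374 had no whole fragments, and XLOC_000732 had too many fragments at 0 HAT for the whole-number check. The largest log2 differences toward lower levels at 1 HAT, in contrast, belonged to XLOC_000701, XLOC_000866, XLOC_000267, and XLOC_000507, with 4.71, 4.58, 4.04, and 3.52 FPKM at 0 HAT and 0 at both later times. They rested on 2, 1, 2, and 2 fragments at 0 HAT, and so were not distinguishable from no difference at this depth.

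The list marked 14 of the loci with an RT-PCR ID (OslncR numbers), whose measurements are not among the files used here. Of these, 11 were listed at 0 at 0 HAT and 3 at 6 HAT. Among the 11, XLOC_000352 had 0, 9.99, and 13.1 FPKM on 0, 6, and 10 fragments, and XLOC_000527 had 0, 0, and 12.5 FPKM on 0, 0, and 5 fragments. XLOC_000352 had its higher level from 1 HAT on and XLOC_000527 at 6 HAT only. The 14 thus held loci of the early, the late, and the lower course, and each was listed at 0 at one end of the treatment.

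The loci lay on all 12 chromosomes, between 3 on chromosome 11 and 15 on chromosome 3. Positions follow IRGSP-1.0, the build in the submitters' processing notes. Genes beside the loci were not looked up, because no annotation of that build was used here.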

How the data were processed

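Long-RNA libraries of WT plants at 0, 1, and 6 HAT were used. The authors deposited FPKM values, for lincRNAs and for genes, in separate tables. Submitters' processing notes name CASAVA 1.8.2, TopHat2, Bowtie, Cufflinks, and IRGSP-1.0. How lincRNAs were assembled and selected is not given in the sources used here, nor is the use of strand. Log2 changes were computed after adding 0.1 FPKM, and loci were called when at least 2-fold apart with at least 1 FPKM in one of both libraries. Fold changes on this scale understate those of low loci where both values are above 0. Beside a listed 0 on a short locus, 0.1 FPKM is far below the value of 1 fragment, and the change can be overstated. XLOC_000866, with a log2 change of -5.55 from 0 to 1 HAT, rested on 1 fragment worth 4.43 FPKM. With 1 column per time there was no test.

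Fragments were recovered as FPKM times effective length divided by a step. Step, fragment length (184, 198, and 173.5 bases), and its SD (57, 59, and 59) were fitted to these values for whole numbers. A fit setting was changed after the results were seen (84 loci were whole with the first). Intervals are exact Poisson and conditional binomial ones (95%) and cover counting error only.

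The commonest ratio of 0 over 6 HAT was 0.57 (log2) among genes, against -0.16 for the value of 1 fragment of lincRNAs. The median log2 change of genes from 0 to 6 HAT was -0.60, of similar size. Whether the 0.57 gives the value of 1 fragment or that shift cannot be told apart. A shared scale of genes and lincRNAs was therefore not assumed, and their levels were not compared directly. The same FPKM and fold cutoffs were applied to both, however, so the shares of genes set beside those of lincRNAs carry this limit. Whether the tables differ in library, in the total used, or in neither cannot be told apart. Loci named were the 5 at each end of the changes, the 5 highest per library, up to 5 listed at 0 at one end, up to 5 reversing, and neighbours, and those said to be outside this rule. XLOC_000129, XLOC_000434, XLOC_000527, and XLOC_000588 were also named after their values were seen. XLOC_01, XLOC_02, and XLOC_03 had no values. The 6 gene columns of other plants were not used. Members and lists were chosen with earlier results of these data known. The calls and the recovery were tested on simulated data. Values were computed in scipy 1.17.1, pandas 2.3.3, and numpy 2.4.6 under Python 3.11.15.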

Additional observations from a re-analysis of the deposited data

How the results depend on the processing

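No paired analysis was possible because each time had 1 column. Counts with at least 5 FPKM were 20 higher and 12 lower (0 to 1 HAT), 38 and 23 (0 to 6 HAT), and 22 and 22 (1 to 6 HAT), with 1 locus higher in both intervals and 4 lower in both; 24, 32, and 39 loci reached 5 FPKM at 0, 1, and 6 HAT. With 4-fold, 10 were lower from 0 to 1 HAT, and 5, 3, and 0 were higher in both intervals, higher then lower, and lower in both. Without a filter 25 were higher in both intervals and 15 only in the later one. With more than 10 fragments, a setting chosen after seeing the data, 13 were higher and 8 lower (0 to 1 HAT), 36 and 15 (0 to 6 HAT), and 12 lower (1 to 6 HAT). Scaling by the median ratio of lincRNAs, which rests on 16 loci, gave 11 lower (0 to 1 HAT), 21 lower (1 to 6 HAT), 22 higher in both intervals, and 0 lower in both, and turned XLOC_000310 to 0.0028 (log2, 0 to 6 HAT) and 0.15 (1 to 6 HAT) and XLOC_001062 to 0.41 (1 to 6 HAT). These 16 loci come from the list treated as chosen on the difference between 0 and 6 HAT, so that scaling is not independent of the choice. Scaling by genes or a pseudocount of 1 gave 6 lower in both intervals. Scaling by genes assumes that both tables share their scale, which is not known.

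Median log2 changes, 0 to 1, 0 to 6, and 1 to 6 HAT, were 0.90, 2.17, and 0.41 with a pseudocount of 1, 1.71, 5.65, and 2.0 scaled by lincRNAs, 0.18, 3.39, and 0.95 scaled to an equal sum, 1.32, 3.99, and 0.84 scaled by genes, 0.83, 3.40, and 0.17 with 5 FPKM, and 0.83, 4.41, and 1.76 with more than 10 fragments. Without a filter they were 0.83 and 0.14 for 0 to 1 and 1 to 6 HAT, and 3.96 for 0 to 6 HAT with a pseudocount of 0.01. Whole fragments only, also chosen after seeing the data, gave 1.29 and 4.19 for 0 to 1 and 0 to 6 HAT. All kept their sign. Over the 34 loci above 0.01 FPKM in every library, median levels were 6.68 and 4.63 FPKM at 0 and 1 HAT, the opposite order to that over all loci. Over these counts, medians, and levels, 82 values under an alternative stayed within 1.5 times a count or level or 0.1 of a log2 median, and 53 did not. Of the values of named loci and of the shares of genes, 306 stayed within their limits, 144 did not, and 3 reversed. Neighbouring genes were not compared, for want of an annotation of the build used.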
